A study of Mus musculus with 2 samples.

Results

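Two-way hub bins are 10 kb stretches of the mouse genome that anchor many chromatin loops on both sides. A bin counted as such a hub if, in each of 2 loop lists from mouse uterus, it anchored at least 5 loops, with at least 2 toward lower coordinates and at least 2 toward higher coordinates. In mm10 coordinates, 194 autosomal bins met the rule, of 30181 autosomal bins that anchored a loop in either library and 19607 that did so in both. The bins were chosen by their measured loop numbers, so those numbers are given as a description and support nothing. On chromosome X, which lies outside the rule, 1 further bin met the same conditions.

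The lists came from uteri of untreated CD-1 mice aged 2 months, an outbred stock, with 1 Hi-C library (n = 1) from diestrus and 1 from estrus. Both groups were unexposed controls, and the labels name no transgene or deletion. The sources used here do not say how many animals gave each library, and the tissue was whole uterus, so the cell types behind a loop cannot be told apart. The diestrus list held 25411 autosomal loops and the estrus list 23385, and the sums of their contacts stood at a ratio of 0.916, estrus over diestrus. With 1 library per stage no difference between stages has a replicate check, and no test was run. Intervals are at 95% and cover counting error or chance over the listed loops or bins. Loops of a hub share an anchor, and read pairs counted with no molecular identifier can repeat a molecule, so the intervals leave out part of the error.

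Hi-C joins DNA ends that lie close together in the nucleus and reads them as pairs, and a loop is a pair of bins joined more often than their surroundings. Many mammalian loops form where cohesin, a ring-shaped complex that reels DNA into a growing loop, is halted by the DNA-binding protein CTCF. A CTCF site is directional and tends to hold the loop that arrives from one side. An anchor with loops on both sides therefore usually holds sites in both orientations, or a promoter or enhancer that touches partners on either side. In the uterus the estrous cycle moves between diestrus, when progesterone acts, and estrus, which follows the surge of estrogen.

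Sequences of named features inside the hubs were taken from RefSeq (GRCm38.p6, the assembly that mm10 names), with 85 promoter windows of 76 genes in the hub bins, each covering 250 bases before and 50 bases after a start site. The core of the CTCF motif was searched on both strands as CCA, any 2 bases, AG, any 2 bases and GGC, and it lay in a window of 1 of these genes, 8430419K02Rik, a non-coding gene in the hub beside Meis1. That window is shown because the hub had the most loops over both libraries together. It spans chr11:18877553-18877852 on the minus strand, and the capitals mark the match, which lies on the reverse strand of the window and begins 49 bases before the start site.
8430419K02Rik: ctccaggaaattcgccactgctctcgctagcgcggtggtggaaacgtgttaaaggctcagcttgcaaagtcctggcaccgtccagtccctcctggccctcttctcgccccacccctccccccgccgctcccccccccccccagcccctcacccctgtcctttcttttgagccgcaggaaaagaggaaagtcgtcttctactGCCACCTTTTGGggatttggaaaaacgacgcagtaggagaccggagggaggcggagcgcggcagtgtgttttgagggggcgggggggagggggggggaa

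A match is a description of letters and not a bound site. Counted by window, 3 overlapping windows of that gene made 3.53% of the 85 hub windows (interval 0.734 to 9.97), against 4.17% of the 6287 windows in all anchor bins of both libraries and 2.47% of all 31396 autosomal windows. None of the 56 windows of protein-coding genes in hub bins held the core, which allows a share of up to 6.38%, against 3.49% in all anchor bins. The rest of each 10 kb bin was not searched, nor were start sites without a listed window.

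CpG is the dinucleotide that is dense in promoters of housekeeping and developmental genes. The protein-coding promoters at hubs held more of it than all autosomal protein-coding promoters did. Their median was 24 CpG per 300 bases (20 to 28) and their median GC content was 64.7%. The same medians were 20 CpG (19 to 21) and 61.0% over all anchor bins, and 14 CpG (13 to 14) and 57.0% over all autosomal protein-coding promoters. The CpG interval at hubs overlapped that of all anchor bins. Promoters of other bins with at least 5 loops are not compared here, so a high CpG content is not shown to be particular to hubs. The next windows belong to the 3 hubs with most loops that have a protein-coding window in the RefSeq table, each the window with most CpG in its bin. They show how far CpG content differed among well-connected hubs, with CpG in capitals: Nr2f2 with 2 (chr7:70366697-70366996, minus strand), Zeb2 with 19 (chr2:45110228-45110527, minus strand) and Tent5a with 46 (chr9:85327075-85327374, minus strand).
Nr2f2: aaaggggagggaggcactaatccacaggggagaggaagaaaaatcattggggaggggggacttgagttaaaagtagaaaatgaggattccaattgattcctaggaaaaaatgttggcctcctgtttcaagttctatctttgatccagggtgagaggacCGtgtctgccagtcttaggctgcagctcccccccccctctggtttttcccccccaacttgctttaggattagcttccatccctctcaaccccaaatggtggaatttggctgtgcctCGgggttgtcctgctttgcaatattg
Zeb2: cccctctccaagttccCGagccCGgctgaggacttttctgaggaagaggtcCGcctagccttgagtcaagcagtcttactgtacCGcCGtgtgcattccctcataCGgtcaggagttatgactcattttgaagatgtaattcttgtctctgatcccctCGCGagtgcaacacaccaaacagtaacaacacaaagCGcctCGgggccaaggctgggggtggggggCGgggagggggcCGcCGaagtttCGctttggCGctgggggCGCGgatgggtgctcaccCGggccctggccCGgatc
Tent5a: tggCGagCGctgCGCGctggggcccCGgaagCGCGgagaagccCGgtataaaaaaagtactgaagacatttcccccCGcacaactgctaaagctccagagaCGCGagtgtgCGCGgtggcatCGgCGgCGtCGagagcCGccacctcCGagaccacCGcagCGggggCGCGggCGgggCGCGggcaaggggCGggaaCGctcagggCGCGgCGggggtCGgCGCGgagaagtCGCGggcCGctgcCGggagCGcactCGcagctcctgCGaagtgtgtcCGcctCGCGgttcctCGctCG

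The Nr2f2 bin anchored 12 loops in each library, the Zeb2 bin 18 in diestrus and 16 in estrus, and the Tent5a bin 13 and 10. CpG was counted in these windows and not over the whole bins. Tent5a encodes a poly(A) polymerase.

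The hubs also held microRNA genes, which were picked for display after their values were seen. MicroRNAs pair through their seed, bases 2 to 8, with messenger RNAs that they repress. Mir99a and Mirlet7c-1 lie side by side in the hub at chr16:77590001-77600000, and Mir125b-1 lies in the hub at chr9:41580001-41590000. Their main mature products follow, with the seed in capitals, and the 3 seeds differ from each other.
mmu-miR-99a-5p: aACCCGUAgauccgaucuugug
mmu-let-7c-5p: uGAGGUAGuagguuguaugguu
mmu-miR-125b-5p: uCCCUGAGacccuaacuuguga

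Both microRNA hubs lay far from any protein-coding gene, 473 kb and 316 kb, and both had fewer loops in estrus. At the Mir99a/Mirlet7c-1 hub 9 loops were called in diestrus against 6 in estrus. Its longest downstream loop, of 560 kb, had fewer contacts in estrus: 378 contacts (341 to 418) were counted in diestrus, at a strength of 6.22, and 218 (190 to 249) in estrus, at 5.09. Strength is the observed contacts over those expected from the surrounding donut of pixels. The Mir125b-1 hub had 8 and 5 loops, and its 370 kb loop toward Sorl1 held 579 contacts (533 to 628) at a strength of 8.51 in diestrus and 379 (342 to 419) at 6.62 in estrus. The intervals of the contacts do not overlap at either loop, but these are raw contacts, not scaled for depth, and most hub loops had fewer in estrus. The share of all loops with intervals apart is not given here, so this describes these loops alone. Hubs with a microRNA gene were 1.03% of hubs (0.125 to 3.67) and 0.791% of all anchor bins (0.671 to 0.925), so the intervals overlap.

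Across the genome the hubs fell on all 19 autosomes. Chromosome 2 carried most, with 18, followed by chromosome 1 with 16 and chromosome 10 with 15, and chromosome 19 carried the fewest, with 5. Relative to the anchor bins of both libraries the share was highest on chromosome 16, at 1.74%, and on chromosome 18, at 1.58%, and lowest on chromosomes 5 and 6, at 0.565% and 0.565%. No hubs were neighbouring bins, and the closest pair was 50 kb apart. The median distance between neighbouring hubs was 6170 kb (4140 to 7320), while 74 hubs had another hub within 1 Mb.

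Hubs anchored 1366 loops in diestrus with 241111 contacts, and 1250 loops in estrus with 202217 contacts. The median hub had 6 loops in either library, and the ranges were 5 to 19 and 5 to 17. Of the hubs, 34 had 10 or more loops in diestrus and 18 in estrus. Loops toward lower coordinates, called upstream here whatever the strand of a gene, numbered 723 in diestrus and 656 in estrus, and downstream loops 703 and 652. More loops left upstream than downstream in both libraries at 76 hubs, the reverse held at 60, and the fuller side changed at 16. At the threshold, 77 hubs had 5 loops in their sparser library and 147 had 2 loops in their sparsest direction. Just outside it, 79 bins had 4 loops in the sparser library with both directions filled, and 182 bins had at least 5 loops in each library with 1 in the sparsest direction.

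**Figure D1:**
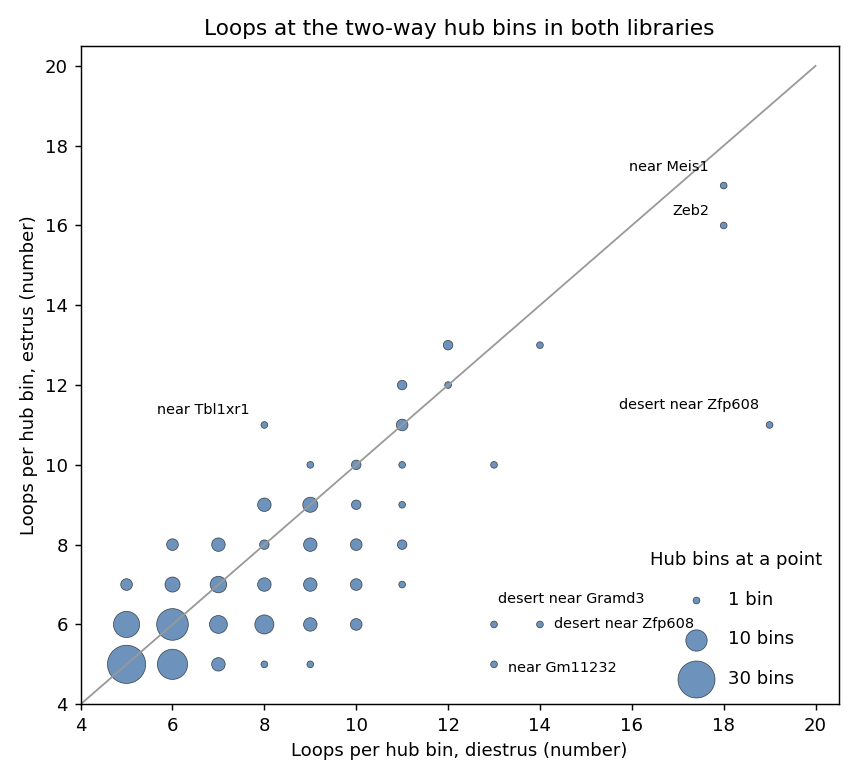
Number of loops anchored at each of the 194 two-way hub bins in diestrus (x axis) and estrus (y axis), 1 library per stage, with circle area proportional to the number of bins at a point and a line at equal numbers. Most bins sit near the line between 5 and 10 loops, the hub beyond the 3′ end of Meis1 (18 and 17) and Zeb2 (18 and 16) sit at the top, and 3 labelled bins between Zfp608 and Gramd3 and 1 near Gm11232 lie far to the right of the line.

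Loops of hubs were longer than the general run. In diestrus the median hub loop was 345 kb long (320 to 360) and in estrus 330 kb (320 to 360), against 240 kb and 230 kb for autosomal loops in general. The 631 other bins with at least 5 loops in each library, whose loops leave mainly to one side, had longer loops still, with medians of 480 kb and 470 kb. Measured from the farthest upstream to the farthest downstream partner, the median span of a hub was 1180 kb (1060 to 1300) for the diestrus list and 1170 kb (1030 to 1300) for the estrus list. The shortest span was 340 kb in either library and the longest were 5290 kb and 5330 kb. The reach was unequal on the 2 sides: the longer side was at the median 1.87 times (1.63 to 2.03) the shorter in diestrus, and 1.75 times (1.62 to 1.94) in the estrus list.

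The reach was much the same in both libraries. At 106 of 194 hubs the farthest partner on each side was the same 10 kb bin in both, and at 124 hubs both farthest partners lay within 20 kb. More than 1 Mb in a single direction was reached by 66 hubs in diestrus and 66 in estrus, and more than 2 Mb by 11 and 9.

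Loop strength was lower at hubs than over all autosomal loops for loops over 200 kb, and up to 200 kb the intervals overlapped. Over loops of any length the hub medians were 3.21 (3.12 to 3.28) in diestrus and 3.26 (3.17 to 3.35) in estrus, against 3.27 (3.25 to 3.30) and 3.42 (3.39 to 3.45) over all autosomal loops. Up to 200 kb the medians were 2.79 (2.68 to 2.96) at hubs and 2.80 (2.77 to 2.83) over all loops in diestrus, and 2.79 (2.64 to 2.97) and 2.88 (2.85 to 2.90) in estrus. For diestrus they were 2.97 (2.85 to 3.10) and 3.25 (3.21 to 3.30) between 200 and 400 kb, 3.41 (3.29 to 3.54) and 3.61 (3.56 to 3.66) between 400 and 800 kb, and over 800 kb 3.85 (3.57 to 4.21) and 4.46 (4.39 to 4.56). In estrus the order was the same, with 3.07 (2.91 to 3.20) and 3.46 (3.42 to 3.51) between 200 and 400 kb, 3.51 (3.34 to 3.64) and 3.88 (3.82 to 3.96) between 400 and 800 kb, and 4.30 (4.06 to 4.55) and 4.74 (4.66 to 4.84) over 800 kb. No test was run on these differences, and the hub loops are part of all loops. Loops of the other bins with at least 5 loops are not compared here, so lower strength is not shown to be particular to two-way hubs.

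Between stages, most hub loops had a counterpart, a loop of the other list with both anchors within 10 kb of its own. The 10 kb were measured between the nearest edges of the bins, so the starts of the anchors could differ by more. The share was 81.1% (78.9 to 83.2, 1108 of 1366) in diestrus and 89.0% (87.2 to 90.7, 1113 of 1250) in estrus. Loops without a hub had shares of 74.1% (73.5 to 74.6) and 80.4% (79.9 to 80.9), and loops of the 631 other bins with at least 5 loops had 82.4% (81.1 to 83.6) and 87.5% (86.3 to 88.6). The rule asks for 5 loops in both libraries, so a higher share than among loops without a hub follows in part from the choice of bins. Hub loops without a counterpart were weaker, at median strengths of 2.52 (2.45 to 2.61) and 2.53 (2.39 to 2.67), and those with one stood at 3.42 in both libraries.

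Per hub, 73 of the 194 had equal numbers in the 2 libraries, 81 had more in diestrus and 40 more in estrus, and 146 differed by at most 1 loop. The median hub had 66.7% (62.5 to 66.7) of its partner bins in common, the same as the 66.7% of the 631 other bins. At 22 hubs the partner bins were identical, at 39 each loop of either list had a counterpart, and at 29 under 50% of partner bins were in common. Of all anchors with at least 5 loops in either library 17.0% had 3 or more loops fewer in estrus, and of the hubs 10.3% did (20 of 194). For 3 or more loops more in estrus the background was 3.28% and the hubs 0.515% (1 of 194). Bins at least 5 loops deep in both lists cannot fall as far as bins that need only reach it in one, so these shares describe the hubs and are not a result about them.

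Loops called at identical anchors in both libraries allowed strength to be compared directly, over 1000 hub loops. Of these, 15 (1.5%, 0.842 to 2.46) were over 1.5-fold stronger in diestrus and 3 (0.3%, 0.0619 to 0.874) in estrus, after the log2 ratio had been centred on its median over all pairs. Over all 16240 same-position pairs the percentages were 0.714% and 0.696%. The median centred log2 ratio of hub loops was -0.03 (-0.04 to -0.01), and their SD over loops was 0.24 against 0.22 over all pairs.

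Raw contacts at hubs differed more between the libraries than strength did. At the same positions 73.5% of hub loops (70.6 to 76.2) had fewer contacts in estrus, against 59.4% of all pairs (58.6 to 60.2), and the median contact ratio, estrus over diestrus, was 0.892 against 0.959. The gap was present in each length class, for instance 0.873 against 0.939 between 200 and 400 kb and 0.847 against 0.930 between 400 and 800 kb. The expected contacts moved the same way, with a median diestrus over estrus ratio per hub of 1.12 against 1.05 over all pairs. The hub value is a median over hubs and the other a median over loop pairs, so their units differ. Loops of the other bins with at least 5 loops are not compared here, so the gap in contacts is not shown to be particular to two-way hubs. Whether the depth or the share of short-range read pairs of the libraries plays a part was not tested.

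**Figure D2:**
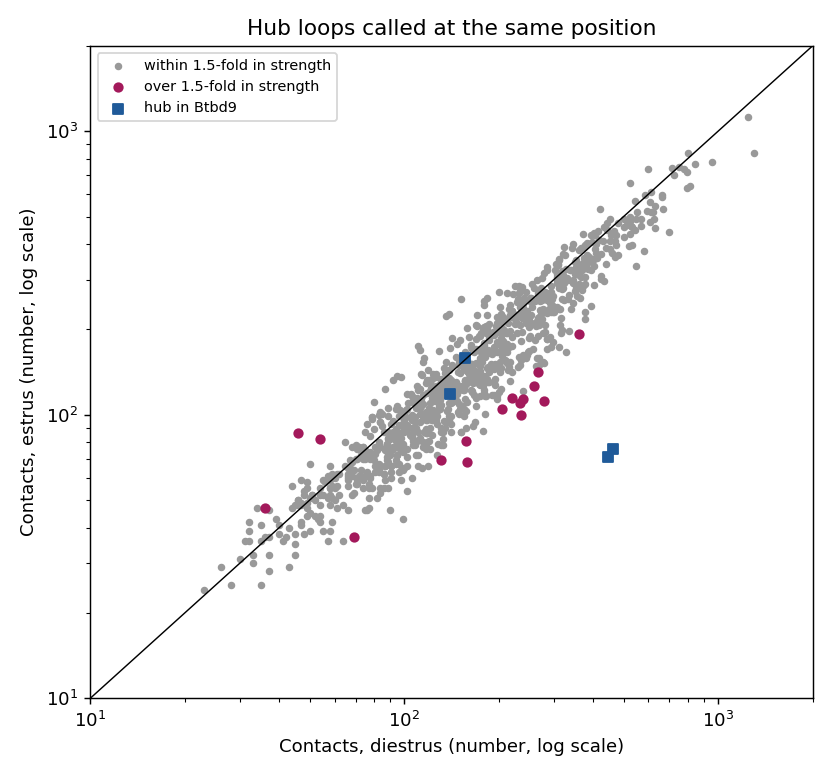
Contacts in diestrus (x axis, log scale) and in estrus (y axis, log scale) at each of the 1000 hub loops called at identical anchors in both libraries, 1 point per loop, with a line at equal contacts. Points lie mostly just below the line, 73.5% of them, and 2 of the 4 loops of the hub in Btbd9 (squares) fall far below it.

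The hub with most loops over both libraries, at chr11:18870001-18880000, ended 427 bases from Meis1, the gene of a homeodomain protein that acts with HOX proteins in reproductive tract development. Diestrus showed 18 loops there and estrus 17. A further hub at chr11:19020001-19030000, with 12 and 13 loops, began 349 bases past the other end of the gene, close to its start site. The pair thus bracketed the whole of Meis1. The loop with most contacts, of 140 kb, joined the first hub to the bin of the start site. Its 1298 contacts in diestrus (1228 to 1371) gave a strength of 9.03, and its 837 in estrus (781 to 896) one of 7.17. Among loops with a counterpart, those of the first hub reached from 1590 kb upstream, near C1d, to 890 kb downstream, near Spred2.

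Most of the first Meis1 hub's loops recurred. Of its 18 diestrus loops 16 had a counterpart, and of its 17 estrus loops 16. The 480 kb downstream loop was over 1.5-fold stronger in diestrus, with 158 contacts at a strength of 3.51, than in estrus, with 68 at 1.96. A diestrus loop of 3120 kb to Otx1 rested on 22 contacts and had no counterpart.

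Zeb2, which encodes a zinc finger homeodomain repressor of epithelial genes, held the next hub, at chr2:45110001-45120000. Of its loops, 11 left downstream in each library, to partners that had Zeb2 as the nearest protein-coding gene. The longest of these, 1330 kb, was also the strongest, at 10.7 in diestrus with 324 contacts (290 to 361) and at 8.67 in estrus with 253 (223 to 286). Upstream loops ended in or near Gtdc1 and Arhgap15 and numbered 7 and 5.

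Nr2f2, the gene of COUP-TFII, a nuclear receptor of the uterine stroma that is needed for decidualization, had a hub at chr7:70360001-70370000 with 2 upstream and 10 downstream loops in each library. Its upstream loops were the strongest. The 870 kb loop had a strength of 10.3 in diestrus with 424 contacts (385 to 466) and of 8.06 in estrus with 302 (269 to 338). The 1390 kb loop held 282 and 196 contacts at strengths of 9.75 and 8.75. In each library 3 of the 10 downstream loops ended at other hubs, near Gm44812 and near Mctp2.

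Sox4, which encodes an HMG box factor of progenitor and decidual cells, had 11 loops in each library from chr13:28950001-28960000. Its 880 kb loop into Cdkal1 had the highest strength among the loops of this hub, 12.6 in diestrus with 453 contacts (412 to 497) and 12.6 in estrus with 384 contacts (347 to 424). A loop of 3020 kb upstream toward Nrsn1 was called in both, with 66 and 46 contacts.

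Wnt5a, which encodes a Wnt ligand for patterning of the uterine epithelium and stroma, had 11 and 12 loops from chr14:28500001-28510000. The upstream ones all ended in Erc2, and the farthest of these, 700 kb, held 213 contacts in diestrus and 152 in estrus at near-equal strengths of 7.48 and 7.50. Maf, the gene of a basic leucine zipper factor, had 14 and 13 loops, of which 8 in diestrus and 6 in estrus ended in Wwox. Its 930 kb loop, 1 of the 15 over 1.5-fold stronger in diestrus, went from 259 contacts at a strength of 8.84 to 126 at 5.86. Cdh11, which encodes a mesenchymal cadherin, had 12 and 13 loops, 10 of them downstream in each library.

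Among hubs with 8 or more loops in each library, Nrp2 had the same partner bins in both. Nrp2 encodes neuropilin-2, a receptor for semaphorins and VEGF, and had 9 upstream and 2 downstream loops. Its loops spanned 230 to 1650 kb, and their contacts ranged from 50 to 202 in diestrus and from 51 to 206 in estrus. Gulp1 and Col3a1, 570 kb apart and joined by a loop with 381 and 356 contacts, had 11 and 12 loops and 10 and 10 loops. Col3a1 encodes a collagen of the uterine stroma.

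**Figure D3:**
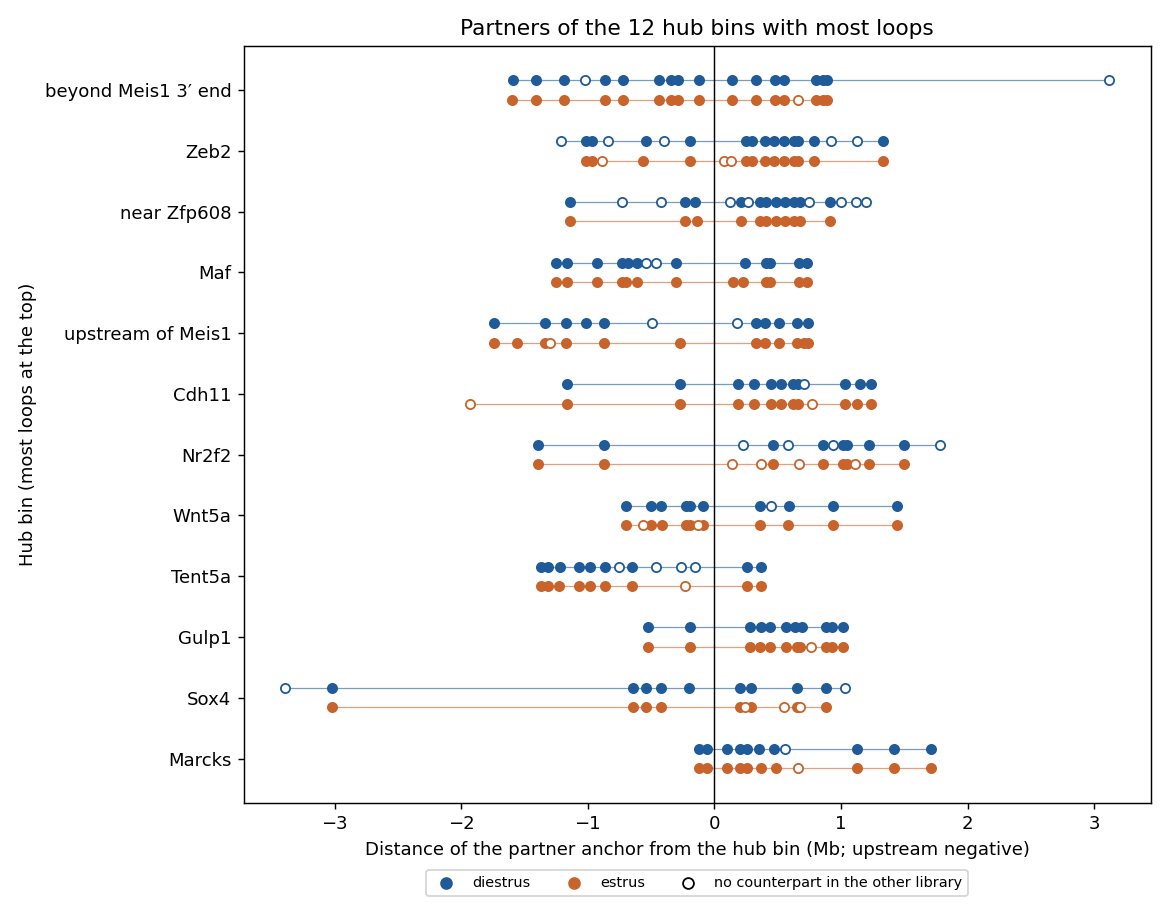
Position of each partner anchor (x axis, distance from the hub bin in Mb, upstream negative) for the 12 hub bins with most loops over both libraries (rows), with diestrus above estrus in each row and open circles for loops without a counterpart in the other library. Filled circles line up between the stages in most rows, the row near Zfp608 has open circles in diestrus alone, and the loop of 3120 kb at the Meis1 hub stands far from the others.

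Developmental regulators and signalling genes were among the genes at hubs. An end of a gene from 9 lists, 416 autosomal genes in all, lay in a hub bin for 28 of them (6.73%, 4.52 to 9.58), against 77 of all 20661 autosomal protein-coding genes (0.373%, 0.294 to 0.466). At the other bins with at least 5 loops lay 30 of the 416, against 160 of all, so list genes were also more frequent there than genes in general. The same held at any anchor bin of both libraries, with 273 of the 416 against 6401 of all 20661. The lists were drawn up with earlier results of these data known, so their share is not independent evidence. Among other developmental transcription factors 9 of 85 (10.6%, 4.96 to 19.2) were at a hub: Hes1, Klf6, Osr1, Osr2, Prdm1, Sox4, Tbx2, Tcf4 and Twist1. Of the Wnt, BMP, FGF and Hedgehog genes 6 of 84 were (7.14%, 2.67 to 14.9): Bmp2, Bmp4, Gas1, Igf1r, Jag1 and Wnt5a. Guidance and adhesion receptors had 5 of 43 (11.6%, 3.89 to 25.1): Alcam, Cdh11, Nrp2, Sema3c and Sema5a.

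The other lists had fewer. Extracellular matrix genes had 3 of 43, Col1a2, Col3a1 and Has2, and homeobox genes had 2 of 58, Tshz3 and Zeb2, or 4 when a gene end within 5 kb of the hub was counted. Steroid and nuclear receptors and coregulators had 2 of 43, Greb1 and Nr2f2, and smooth muscle genes had Tpm1 alone of 25. No member of the chromatin loop machinery (0 of 19, up to 17.6%) or of the ubiquitously expressed genes (0 of 16, up to 20.6%) lay at a hub. At the share over all genes, 0.373%, lists of this size would mostly have none, so their absence is no contrast.

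**Figure D4:**
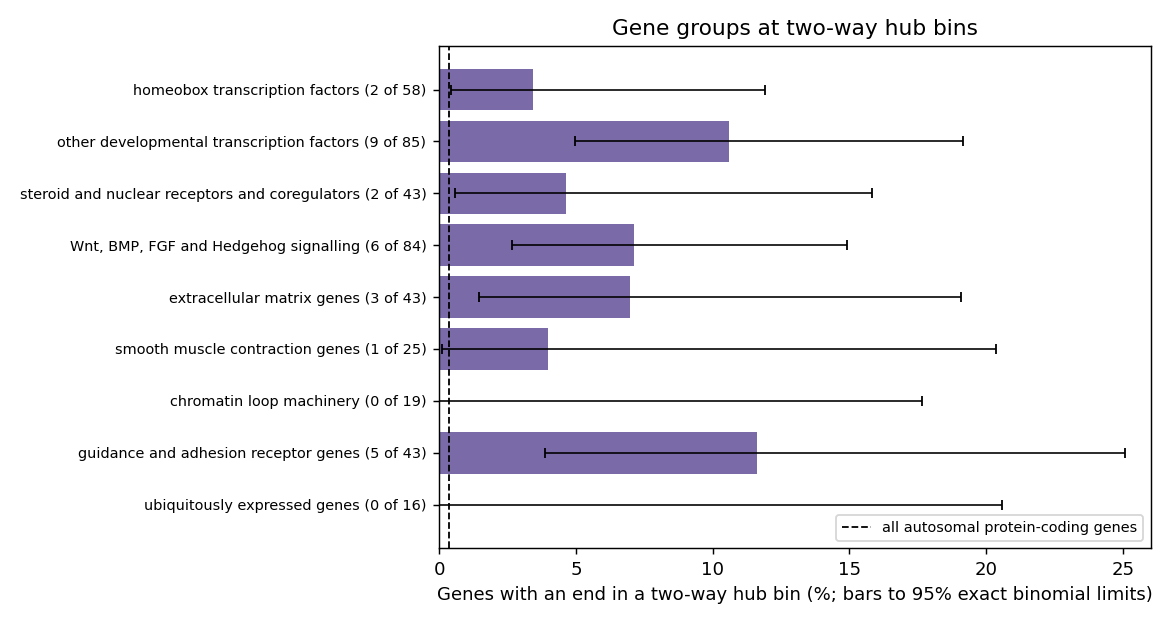
Percentage of the genes of each list with an end in a two-way hub bin (bars, x axis, with lines to the exact binomial 95% limits) and the percentage over all autosomal protein-coding genes (dashed line, 0.373%). Other developmental transcription factors (10.6%) and guidance and adhesion receptors (11.6%) have the longest bars, the chromatin loop machinery and the ubiquitously expressed genes are at 0, and the lists hold 16 to 85 genes.

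Loops of these genes were alike between the libraries to different degrees. Greb1, an estrogen receptor coregulator gene, had 5 loops in each library, and its 90 kb loop was alike in both: 612 contacts (564 to 662) and 613 (565 to 664), with strengths of 9.23 and 9.14. Tbx2, a T-box repressor gene, had 6 and 7 loops, and its 330 kb loop to Brip1 had 374 (337 to 414) and 357 (321 to 396) contacts at strengths of 13 and 13.4. Its 460 kb loop to Bcas3 had 215 (187 to 246) and 147 (124 to 173), in raw contacts not scaled for depth. Igf1r, the receptor gene for insulin-like growth factor 1, had 6 loops in each, and a 170 kb loop inside the gene held 553 and 519 contacts. Col1a2, a fibrillar collagen gene, had 6 loops in each, and its 130 kb loop held 608 contacts (561 to 658) and 480 (438 to 525) at strengths of 7.29 and 6.33. Tbx2 and Igf1r were named after their values were seen.

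Bmp2, the gene of a decidual signal, anchored 9 in diestrus against 5 in estrus, and Bmp4 had 7 in each. Both were named after their values were seen, and 7 of the 9 diestrus loops of Bmp2 had a counterpart, of which 4 were at shifted bins. The 930 kb loop of Bmp2 held 135 and 132 contacts, a difference within counting error. At Hes1, a Notch target gene, 8 loops in each library all had counterparts, and its 120 kb downstream loop held 798 contacts (744 to 855) against 633 (585 to 684) in the estrus library. Klf6, a zinc finger gene, had 11 and 8 loops.

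Of the hubs, 37.1% (30.3 to 44.3, 72 of 194) held an end of a protein-coding gene and 24.7% (18.8 to 31.4, 48) a start site of one. Start sites were those of listed promoter windows, and some genes have none, such as Maf, which lies wholly inside its hub bin. The start-site shares are thus lower limits. The same shares were 23.1% (19.9 to 26.6) and 13.6% (11 to 16.6) for the 631 other bins and 28.7% (28.1 to 29.4) and 17.1% (16.6 to 17.7) for all anchor bins of both libraries. Hubs also lay in gene-poor ground: 24.7% (18.8 to 31.4) lay over 100 kb from a protein-coding gene, against 17.9% (15.0 to 21.1) and 10.3% (9.91 to 10.8). The median number of protein-coding genes within 500 kb was 4 (3 to 5) at hubs, 5 (5 to 6) at the other bins and 9 (9 to 9) over all anchor bins. Ends of long non-coding genes lay in 21.6% (16.1 to 28.1) of hubs, 20.4% (17.4 to 23.8) of the other bins and 14.5% (14 to 15) of all anchor bins.

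At the 47 hubs whose listed start sites lie on a single strand, 378 of 681 loops (55.5%, 51.7 to 59.3) left against the direction of transcription. The shares were 44.3% (41.4 to 47.3) at 83 of the other bins and 48.3% (47.4 to 49.1) at 3076 anchor bins. More loops left against than with transcription at 29 hubs, the reverse held at 15, and 3 were equal. The loops of both libraries were counted together, so recurring loops count in each and the intervals over loops are too narrow.

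Hubs lay under other loops. A loop spans a hub if both of its anchors lie at least 20 kb to either side. The rule does not count such loops, but it asks for loops on both sides of a bin. Of the 631 other bins, 449 had no loop in their sparsest direction. A loop that joins an upstream to a downstream partner also spans the bin, so a higher number at hubs can follow in part from the rule. The median number of spanning loops was 8 (7 to 10) for diestrus, and again 8 (7 to 8) for estrus, against 4 (3 to 4) and 3 (3 to 4) at the 631 other bins and 4 (3 to 4) and 3 (3 to 3) at all anchor bins. No spanning loop was found at 3 hubs in each library (1.55%, 0.320 to 4.45), against 11.1% (8.75 to 13.8) and 14.6% (11.9 to 17.6) of the other bins. The most was 28 in diestrus at the hub near Gm44812 on chromosome 7 and 24 in estrus at the hub near BC052040 on chromosome 2. Other loops anchored within 500 kb were of nearly equal number in the 3 groups, with medians of 18, 17 and 16 in diestrus and 16, 15 and 15 in estrus. Per 100 of these the median spanning number was 43.6 (39.5 to 47.5) at hubs, 23.5 (21.1 to 25.0) at the other bins and 23.1 (22.6 to 23.1) at all anchor bins in diestrus.

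**Figure D5:**
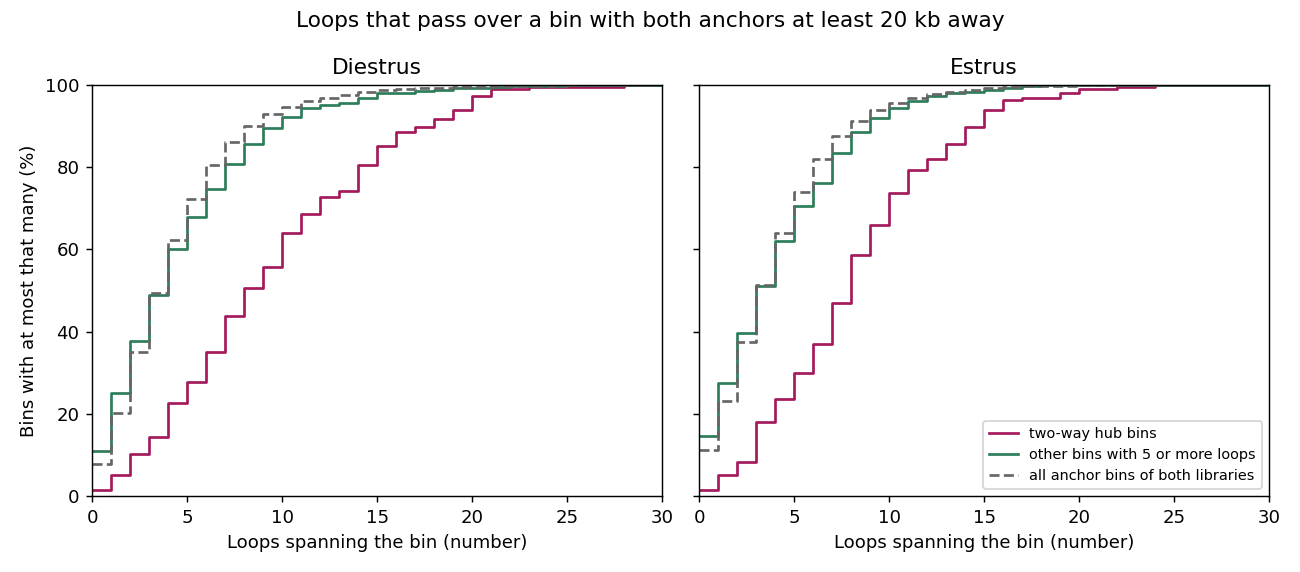
Cumulative percentage of bins (y axis) with at most a given number of spanning loops (x axis) in diestrus (left) and estrus (right), for the 194 two-way hub bins, the 631 other bins with at least 5 loops in each library and all 19607 anchor bins of both libraries. The curve of the hubs lies to the right of the others in both panels, with medians of 8 and 8 against 4 and 3.

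An upstream and a downstream partner of a bin can be joined directly to each other. At least 1 such loop was found at 92.8% (88.2 to 96.0) of hubs in diestrus and 94.8% (90.7 to 97.5) in estrus. The shares were 89.3% (84.2 to 93.2) and 88.2% (83.0 to 92.3) of the other bins with at least 5 loops and with loops on both sides, and 84.3% (83.0 to 85.6) and 84.2% (82.7 to 85.5) of all anchor bins with loops on both sides. Of all upstream and downstream partner pairs at hubs 38.3% (36.4 to 40.2) and 37.6% (35.5 to 39.7) were joined. Among the other bins 44.0% (41.3 to 46.6) and 44.3% (41.4 to 47.3) of pairs were joined, and among all anchor bins 52.2% (51.3 to 53.2) and 53.9% (52.8 to 55.0) of pairs were joined. The order of the groups by bins with a joined pair was the reverse of their order by pairs. By bins, the intervals of hubs and of the other bins overlapped in both libraries. Hubs have more pairs per bin, and whether this plays a part in the order was not tested.

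Hubs were partners of hubs. Of all partner ends of hub loops 8.42% (7.03 to 9.98) in diestrus and 8.87% (7.38 to 10.5) in estrus were themselves hubs, against 2.93% (2.78 to 3.09) and 2.90% (2.75 to 3.07) of partner ends of all anchor bins. Other bins with at least 5 loops took a further 20.1% (18.1 to 22.3) and 21.6% (19.4 to 24.0). Partners with an end of a protein-coding gene were fewer than at anchor bins in general, 14.6% (12.8 to 16.5) and 16.3% (14.3 to 18.4) against 26.5% (26.1 to 27) and 26.8% (26.4 to 27.2). A bin with many loops is a partner many times, so a higher share of hubs among the partners follows in part from the rule. Partner ends of the other bins with at least 5 loops are not compared here.

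Joined hubs formed 26 networks of 69 hubs, 10 of them with 3 or more hubs. The largest had 5 hubs each. On chromosome 14, 4 hubs inside Lrmda and 1 near Kcnma1 lay within 1030 kb, with 7 to 11 loops each in diestrus and 6 to 10 in estrus. On chromosome 2, hubs near Skida1, at Bmi1 and Commd3, near Spag6, at Pip4k2a and in Armc3 lay within 1250 kb, and Bmi1 encodes a Polycomb protein. Networks of 4 hubs lay around Meis1 (1270 kb), between Zfp608 and Gramd3 (680 kb) and from Nr2f2 to Mctp2 (1220 kb). Wnt5a was joined to 2 hubs inside Cacna2d3, Cdh11 to hubs near Cdh11 and Cdh5, and Nrp2 to hubs near Icos and Pard3b.

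The largest differences in loop number, diestrus over estrus, included 3 hubs on chromosome 18 in the stretch between Zfp608, a zinc finger gene, and Gramd3. The hubs at chr18:55130001-55140000, chr18:55620001-55630000 and chr18:55760001-55770000 had 19, 14 and 13 loops in diestrus and 11, 6 and 6 in estrus, and the fourth, at chr18:55810001-55820000, had 10 and 8. Together these hubs anchored 50 different loops in diestrus, of which 27 had no counterpart in estrus, and 26 in estrus, of which 3 had none in diestrus. The 27 were mostly weak, with a median strength of 2.36 (lowest 1.91, highest 3.61) and a median of 92 contacts. Diestrus loops that recurred had a median strength of 3.02, and their estrus counterparts of 2.53. The 630 kb loop between 2 of the hubs held 236 contacts at a strength of 4.77 in diestrus and 100 at 2.67 in estrus.

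Elsewhere, the hub at chr4:71830001-71840000, 72.0 kb from Gm11232, anchored 13 in diestrus against 5 in estrus. Of its upstream diestrus loops 7 of 10 had no counterpart. The hub at chr16:86880001-86890000, 464 kb from N6amt1, had 10 and 6, while its 1080 kb loop to Adamts1, the gene of a secreted metalloprotease, held 533 contacts (489 to 580) and 458 (417 to 502) at strengths of 10.7 and 10.3. In the other direction the hub at chr3:21930001-21940000, 136 kb from Tbl1xr1, anchored 8 in diestrus against 11 in estrus. The 4 estrus loops without a diestrus counterpart held 38 to 66 contacts, at strengths of 2.63 to 3.49. Hubs at Fam207a and Copz2 and near Ndufb4, Gm5148, Tmem26 and Ccdc171 each had 2 more loops in estrus. The last 2 tied with the others in number and ranked below them by contacts.

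The hub in Btbd9, described after its values were seen, lay at chr17:30450001-30460000. It had the largest ratio of contacts between the libraries, diestrus over estrus, by medians over same-position loops taken on the log scale. At the next hub this median ratio was 1.80, and at the Btbd9 hub it was 2.69 over 4 loops. Its 390 kb loop to Dnah8 had 464 contacts (423 to 508) in the diestrus library and 76 (59.9 to 95.1) in the estrus library, and its 460 kb loop to Glp1r had 445 (405 to 488) and 71 (55.5 to 89.6). The expected contacts of these loops changed with them, by 4.08 and 3.79 times, so strength moved less, from 4.88 to 3.26 and from 8.99 to 5.44. Its upstream loops held 140 and 118 contacts at 480 kb and 156 and 159 at 340 kb, with expected contacts that changed by 1.77 and 1.44 times. The other 14 same-position loops within 1 Mb that do not end at the hub had contact ratios between 0.660 and 1.34. A loop of 140 kb to Glo1, called at this hub in estrus, had a diestrus counterpart, but not at identical anchors. Glo1 lies in a segment known to vary in copy number among laboratory mice. Copy number was not measured here, and its part in these values was not tested.

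The widest span between partners called in both libraries was at the hub 131 kb from Arhgap42, chr9:9370001-9380000, where the farthest upstream partner lay 1150 kb away and the farthest downstream partner 3820 kb. The longest loop rested on 33 contacts (22.7 to 46.3) and 30 (20.2 to 42.8), at strengths of 6.44 and 5.69. All 8 diestrus loops had a counterpart. A ninth estrus loop, of 410 kb, ended in the bin of Pgr, the progesterone receptor gene, with 103 contacts (84.1 to 125) at a strength of 3.27. Contacts at that position in diestrus are not used here, since only called loops are listed. Hapln1, a proteoglycan link protein gene, followed with 4080 kb, and its 3990 kb loop held 117 contacts (96.8 to 140) and 86 (68.8 to 106). Sox4 spanned 3900 kb, the hub near Prl5a1 3390 kb, the hub near Ndufa4 3330 kb and the hub near Mctp2 3170 kb.

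Loops over 1.5-fold stronger in diestrus lay at hubs on several chromosomes and are described after their values were seen. At the hub near Kctd12 2 loops were among them, of 500 kb with 278 and 112 contacts and of 140 kb with 360 and 192. Tent5a had a 1070 kb loop with 131 and 69 contacts, at strengths of 4.73 and 2.69, while its 860 kb loop held 237 (208 to 269) and 244 (214 to 277). Cdh11 had a 190 kb loop with 234 and 110 contacts, Zeb2 a 300 kb loop with 205 and 105 and Col3a1 a 130 kb loop with 220 and 115. A 2610 kb loop near Mctp2 had 69 and 37. The 3 loops over 1.5-fold stronger in estrus held 46 and 86 contacts at 1370 kb at P2rx1, an ATP-gated channel gene, 54 and 82 at 180 kb near Dbi, and 36 and 47 at 560 kb at Arhgef3.

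Among the remaining named hubs the numbers of loops were close. Gulp1, an adaptor gene for engulfment of dying cells, had 11 and 12 loops, and each of its diestrus loops had a counterpart. Its 520 kb upstream loop had strengths of 9.29 and 8.72, and its 1020 kb downstream loop 8.99 and 8.67. Marcks, a substrate gene of protein kinase C, had 11 in each library, and its 60 kb loop held 402 contacts (364 to 443) and 437 (397 to 480). Has2, a hyaluronan synthase gene, had 7 in each, and its 160 kb loop held 293 (260 to 329) and 272 (241 to 306).

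Tpm1, a tropomyosin gene of smooth muscle, had 6 and 5 loops, and its 110 kb and 170 kb loops toward Tln2 held 501 and 473 contacts in diestrus and 424 and 430 in estrus. Jag1, a Notch ligand gene, had 8 and 6, and its 620 kb loop held 331 (296 to 369) and 303 (270 to 339). Osr2, a zinc finger gene of the developing urogenital tract, had 8 and 9 loops, all with counterparts. Its 850 kb loop to Rgs22 kept a strength of 7.47 and 7.42, while its 620 kb loop to Vps13b had 335 contacts (300 to 373) and 198 (171 to 228). Tcf4, a basic helix-loop-helix gene, had 9 and 10, and its 250 kb loop to a further hub in the gene held 327 (293 to 364) and 166 (142 to 193). At Tshz3, a homeobox gene of smooth muscle differentiation, 9 and 8 loops were called, and the 790 kb loop held 178 (153 to 206) and 88 (70.6 to 108).

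Gas1, a co-receptor gene for Hedgehog ligands, had 8 loops in each library, with 253 contacts (223 to 286) and 255 (225 to 288) at 290 kb and 299 (266 to 335) and 180 (155 to 208) at 140 kb. Sema5a, a semaphorin gene, had 9 and 8, and its 190 kb loop inside the gene held 346 (310 to 384) and 292 (259 to 327). At Gas1, a loop with near-equal contacts in the 2 libraries thus lay beside one with fewer contacts in estrus.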

How the data were processed

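Per the labels' protocols, the Arima HiC kit made 1 uterine library per stage. The submitters' processing notes name Juicer and mm10, and the deposited lists have the columns of HiCCUPS, per the file headers; the sources used here give no version or caller setting. Observed contacts are raw counts deposited by the authors, expected contacts are a signal from the authors' caller for 4 neighbourhoods, and q-values are those of the authors' caller. Anchor positions, the other deposited values, are in bases.

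Hubs were found by the rule in the opening of the report. Strength was observed over donut-expected contacts. Intervals of shares are Clopper-Pearson, those of contacts exact Poisson and those of medians from binomial order statistics. Genes came from the RefSeq table of GRCm38.p6, and a gene was placed by its ends. Hubs named in the text were the 12 with most loops, the 6 with the widest span, the 5 with the largest loss and gain (ties by contacts), the 5 with most identical partners and up to 3 per gene list; others are said to be chosen after their values were seen. Members and lists were chosen with earlier results of these data known. Python 3.11.15, pandas 2.3.3, numpy 2.4.6, scipy 1.17.1 and networkx 3.6.1 were used. The hub search was run on simulated lists with hubs planted above the rule in both. No loops missed by a caller were simulated, so the run checks the counting alone. The search found 100 of 100 planted hubs. It also returned 2 of 100 bins planted short of the rule, both of which met the rule by a plain count of the simulated loops. Alternatives are in the closing section. Depth of whole libraries is not used here, since the lists hold called loops only.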

Additional observations from a re-analysis of the deposited data

How the results depend on the processing

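Of 94 values recomputed under other settings, 73 stayed within 1.5 times the main count or within its interval. Merging of neighbouring hub bins could change nothing, since no hubs were neighbouring bins, and its values are among the 73. The number of hubs, 194, was 117 with at least 6 loops per library, 376 with at least 1 loop per direction and 47 with at least 3. With q-values of 0.01 or less 168 of the 194 remained hubs, with lists of equal number 179, and without chromosome 7 186. Median length moved to 310 kb in estrus with at least 4 loops, to 390 kb in diestrus and 370 kb in estrus with at least 6, to 370 kb in diestrus with at least 1 loop per direction, and to 430 kb and 400 kb with at least 3. The share of loops with a counterpart was 73.2% in diestrus and 80.0% in estrus with identical anchors. With anchors within 20 kb between nearest edges it was 83.4% and 91.0%. Median strength was 3.29 in diestrus with lists of equal number, 3.002 and 3.09 with the bottom-left background, 2.80 and 2.73 with the horizontal one and 2.74 and 2.79 with the vertical one. Counting any base of a gene put 56.2% of hubs at a protein-coding gene. With neighbouring bins added, loop numbers of the named hubs stayed within 1.5 times in 78 of 78 values. No paired analysis was possible because each stage has 1 library and no fit was made. Both lists hold called loops only, so a loop near the caller's threshold can be listed in a single library, and an unlisted loop does not mean absent contacts.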
